A study of Rattus norvegicus with 20 samples.

Results

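The genes described here were those whose RNA stood higher after soft priming than after stiff priming in every library collected at 5 weeks, whether or not the mesenchymal stromal cells (MSCs) had been moved to the other surface for the last 2 weeks (with 1 exception, the member of rank 69 described below). They were 69 of the 30560 genes in the count table, chosen by their CPM in those 8 libraries. CPM is the number of reads of a gene per 1000000 reads counted in its library. A gene was a member if its mean was at least 5 CPM over the 4 soft-primed libraries and its lowest soft-primed CPM was at least 1.5 times its highest stiff-primed CPM. The soft-primed libraries were 5w2, grown for 5 weeks on 2 kPa silicone, and 3w2→2w100, grown for 3 weeks on 2 kPa and then for 2 weeks on 100 kPa. The stiff-primed libraries were 5w100, grown for 5 weeks on 100 kPa, and 3w100→2w2, grown for 3 weeks on 100 kPa and then for 2 weeks on 2 kPa. Each of these groups held 2 libraries, and switched and unswitched libraries of the same replicate number moved together, as given below. The 5-week values chose the members, so they are given below without a test.

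The remaining 12 libraries, which the choice did not use, were 3 each of 1w2 and 1w100, grown for 1 week on the soft or the stiff surface, and 3 each of 3w2 and 3w100, grown there for 3 weeks. All 20 were polyA RNA libraries of bone marrow MSCs from female Wistar rats, for which no genotype or age is named, on gelatin-coated silicone with a passage every week. A batch of MSCs came from a single rat, and cells were enriched with anti-CD54 and anti-CD90 beads after an initial expansion on their surface. The labels do not state whether a replicate number marks the same rat at different weeks. Library totals ran from 16127907 to 24139128 counts, so that 3 counts corresponded to 0.124 to 0.186 CPM.

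MSCs are stromal cells of the bone marrow that can form bone, cartilage and fat cells and that take part in tissue repair. On a stiff surface they pull on adhesions and stress fibres, and part of them turn into contractile myofibroblasts, the cells that lay down scar tissue. Mechanical memory is the name for traits set by an earlier surface that persist on a later one. A gene that held its soft level after the move to a stiff surface, and its stiff level after the move to a soft one, met the pattern by which these genes were picked.

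The count table identifies genes by Ensembl number alone, and none of its 30560 identifiers could be matched to a symbol in the reference table used here. Genes are therefore given by identifier or by rank. Rank 1 had the largest ratio of lowest soft-primed to highest stiff-primed CPM. The identity of the cells could not be checked against marker genes, no gene list could be counted, and no promoter or protein could be assigned to a member. In bulk RNA, fewer cells that express a gene and less of its RNA per cell cannot be told apart.

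At 5 weeks the members ranged from a mean of 5.46 to 10486 CPM in the soft-primed libraries, with a median of 26.2 CPM. There were 14 members between 5 and 10 CPM, 42 between 10 and 100 CPM and 13 at 100 CPM or more. The soft-primed mean was a median of 3.71 times the stiff-primed mean and at least 1.79 times. The fold was at least 5 for 20 members, between 2 and 5 for 43 and below 2 for 6, and it was at least 10 for 9 of the 20, counting the member of rank 69, which had no stiff-primed count and so no finite fold. The 5 members just inside the threshold had ratios of lowest soft-primed to highest stiff-primed CPM from 1.504 to 1.535, and the 5 genes just outside had 1.471 to 1.490. With the surfaces exchanged, the same rule took 183 genes. Applied to the surface the cells were on at collection in place of the first surface, it took 0 genes in either direction.

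**Figure D1:**
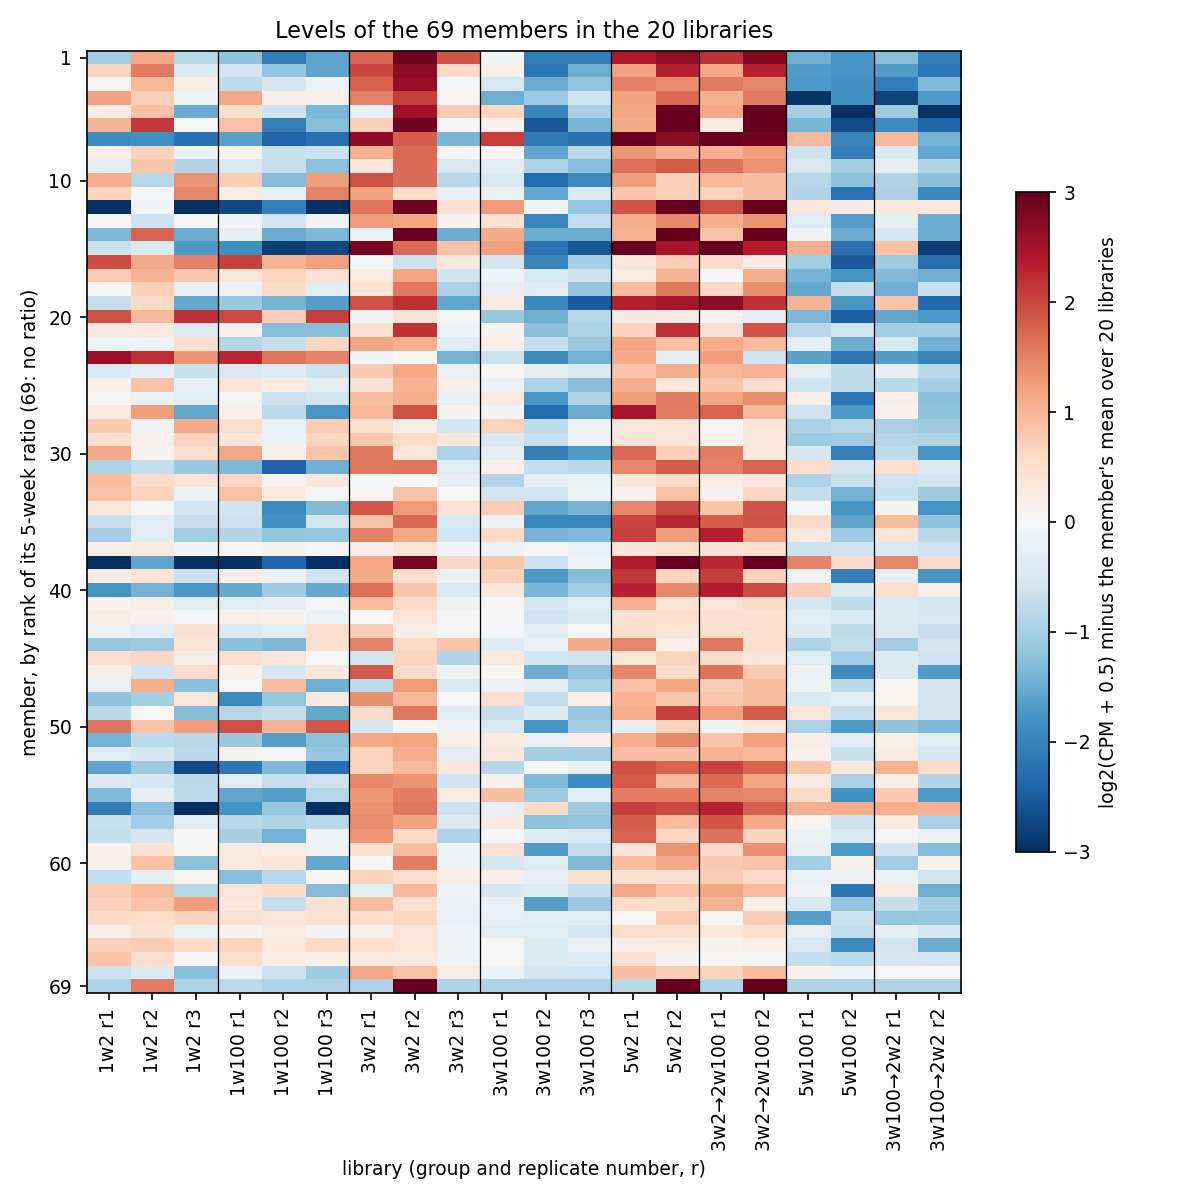
Each row is 1 of the 69 members, ordered by rank, and each column is 1 of the 20 libraries; colour gives log2(CPM + 0.5) minus the member's mean over the libraries. The 4 soft-primed libraries at 5 weeks are red for nearly every member and the 4 stiff-primed ones blue for most, while 3w2 replicate 3 and 3w100 replicate 1 sit nearer to each other, with medians of -0.14 and -0.04.

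ENSRNOG00000013907, of rank 1, measured 10.7 and 12.8 CPM in 5w2 and 8.94 and 13.7 CPM in 3w2→2w100. It measured 0.265 and 0.108 CPM in 5w100 and 0.367 and 0 CPM in 3w100→2w2, which amounts to 0 to 7 reads a library. Its lowest soft-primed value was 24.3 times its highest stiff-primed value, and moving the cells left both levels close to those of the unswitched cultures. ENSRNOG00000012471, of rank 2, measured 4.81 and 10.8 CPM in 5w2 and 4.58 and 10.7 CPM in 3w2→2w100. In 5w100 it was at 0.212 and 0.161 CPM, and in 3w100→2w2 at 0.210 and 0 CPM. Here replicate 2 held more than replicate 1 after soft priming, by a similar margin before and after the switch.

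The most abundant member, of rank 43, measured 10874 and 9651 CPM in 5w2, 10908 and 10513 CPM in 3w2→2w100, 5667 and 4413 CPM in 5w100, and 5440 and 4655 CPM in 3w100→2w2. It made up 54.5% to 82.2% of the summed CPM of the members in a library, so the members were described gene by gene and not as a sum. The member of rank 12 measured 311 and 767 CPM in 5w2, 323 and 715 CPM in 3w2→2w100, 107 and 101 CPM in 5w100, and 105 and 107 CPM in 3w100→2w2. Its stiff-primed libraries lay within a few CPM of each other, while the soft-primed replicates differed by more than the 1.5 times that the rule asked for between the primings.

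The last member, of rank 69, had no ratio. It had 0 counts in all 4 stiff-primed libraries and also in 3w2→2w100 replicate 1, and it met the rule only because 0 is not below 1.5 times 0. Its 760 soft-primed counts came from replicate 2, at 19.7 CPM in 5w2 and 18.7 CPM in 3w2→2w100, apart from 1 count in 5w2 replicate 1. At 3 weeks its 254 counts were all in 3w2 replicate 2. The other 68 members had a ratio above 1.5.

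Switched and unswitched cultures lay close to each other, for the members as for most of the genes tested. After soft priming, the ratio of the 3w2→2w100 mean to the 5w2 mean had a median of 0.961 and ran from 0.627 to 1.196 over the 69 members. It was within 1.5 times for 68 of 69 members, against 93.5% of the 13604 genes that passed the filter on low counts, and it was below 1 for 46. The 2 replicate pairs gave medians of 0.952 and 0.963, and 25 members were lower after the switch in both pairs while 13 were higher in both. After stiff priming, the ratio of the 3w100→2w2 mean to the 5w100 mean had a median of 1.03 and ran from 0.561 to 1.88 over the 68 members with counts. Of these, 64 lay within 1.5 times, a share like the 94.2% of all genes tested. These pairs differed more, with medians of 0.989 and 1.13, and 22 members were higher after the switch in both pairs against 9 that were lower in both. Over all genes tested, the median ratios were 0.990 after soft priming and 1.01 after stiff priming. For the counts of members that moved the same way in both pairs, no share over all genes is given. The rule required the 4 libraries of a priming to lie on the same side, so nearness of switched to unswitched levels was in part set by the choice.

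**Figure D2:**
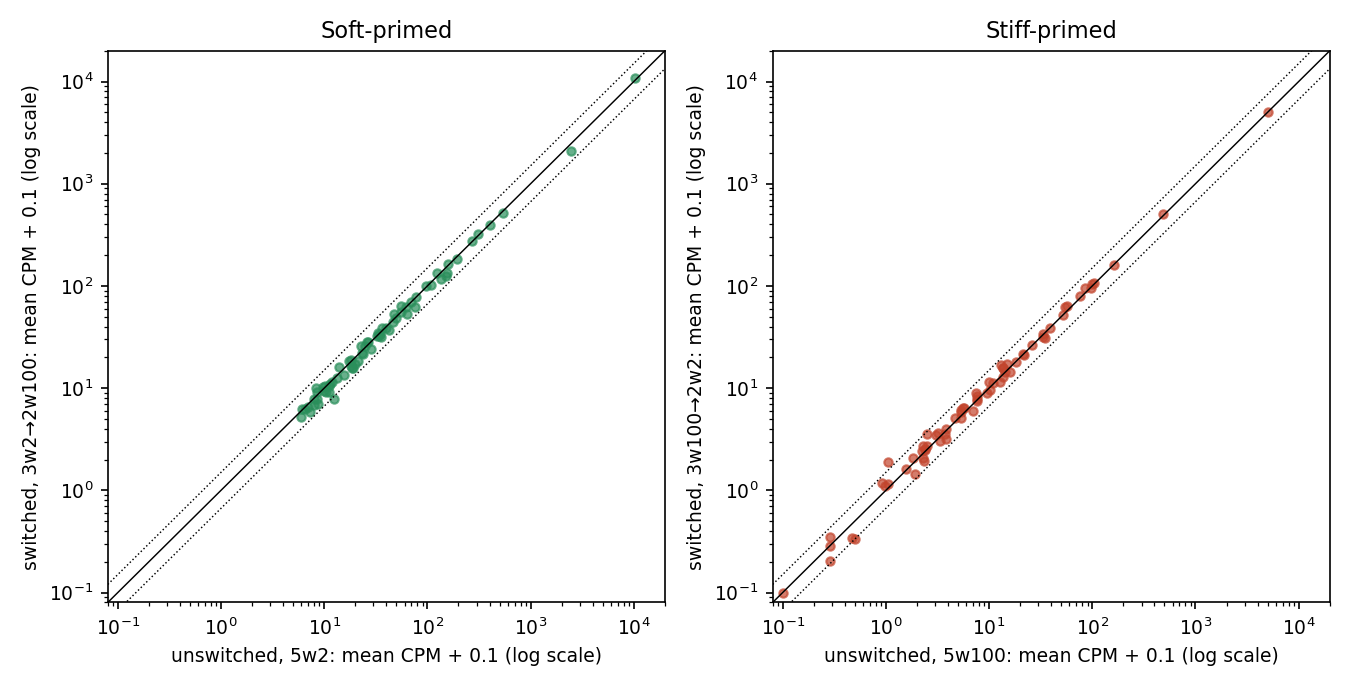
Mean CPM of each member in the switched cultures (vertical) against the unswitched cultures (horizontal), on log scales after adding 0.1, for soft-primed (left) and stiff-primed (right) MSCs, with n = 2 libraries a group. The solid line marks equal levels and the dotted lines 1.5 times; 68 of 69 soft-primed and 64 of 68 stiff-primed members with counts lie between the dotted lines.

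The members differed more between replicates than between switched and unswitched cultures, above all after stiff priming. The mean of the replicate 1 libraries and the mean of the replicate 2 libraries were a median of 1.25-fold apart over the members after soft priming and 1.77-fold apart after stiff priming, and more than 2-fold apart for 12 and 31 members. After stiff priming 58 members were higher in replicate 1 and 9 in replicate 2, whereas after soft priming 32 were higher in replicate 1 and 37 in replicate 2. A replicate 1 library was therefore the highest stiff-primed library, the one that set the threshold, for 57 of 69 members (33 in 5w100 and 24 in 3w100→2w2). The 3w2→2w100 replicate 1 library was the lowest soft-primed one for 30 members. For the spread between replicates, no value over all genes is given. Some members, such as those of ranks 1 and 2, were at a few reads in the stiff-primed libraries. There a fold between replicates rests on counts near the floor.

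The 3-week libraries were not used to choose the members, and 3 weeks was the time at which the switched cultures were moved. All 69 members had a higher mean CPM in 3w2 than in 3w100, where 47.7% of all genes tested had a log2 fold change above 0. The median fold over the members was 2.40, with quartiles of 1.79 and 3.43, beside 1.00 over all genes. The mean in 3w2 was at least 1.5 times that in 3w100 for 59 of 69 members, against 5.06% of all genes tested. The quasi-likelihood test of edgeR on the 12 libraries of weeks 1 and 3 called 0 of the 69 members at an adjusted p below 0.05 (68 of them could be tested, and the lowest adjusted p was 0.545), as it called 0% of all genes. At an unadjusted p below 0.05, 40 of 69 members were higher in 3w2 and 0 were lower, against 4.07% of all genes higher. DESeq2 called 4 members higher, against 0.0951% of genes. Leaving out 3w2 replicate 3 let edgeR call 4 members (0.0507% of genes). The unadjusted count dropped to 21 when 3w2 replicate 2 was left out (2.34% of genes), to 22 when 3w100 replicate 3 was (2.56%), and to 23 when 3w100 replicate 2 was (1.95%).

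The spread of the 3-week libraries over the members was set mostly by 1 library on each surface. Relative to each member's mean over the 20 libraries, the median log2 level was 0.85 and 1.08 in 3w2 replicates 1 and 2 and -0.14 in replicate 3, while it was -0.04 in 3w100 replicate 1 and -0.95 in both of the others. Replicate 3 was the lowest 3w2 library for 59 of 69 members, and replicate 1 was the highest 3w100 library for 53. The members in 3w2 replicate 3 stood at a median of 0.866 times their level in 3w100 replicate 1, with 24 above 1 and 44 below. The libraries of the 2 surfaces did not overlap for 18 of 69 members, against 7.81% of all genes tested, a count that was 58 without 3w2 replicate 3 (14.4% of genes in the same libraries) and 53 without 3w100 replicate 1 (17.1%). What set these libraries apart was not tested.

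Between libraries of the same number, the members were higher on the soft surface in 62 of 69 cases in replicate 1, 69 of 69 in replicate 2 and 58 of 69 in replicate 3, against 52.4%, 47.9% and 55.3% of all genes tested. The median folds were 1.81, 4.605 and 1.69, beside 1.01, 0.990 and 1.02 over all genes tested. Replicate 3 matters here because no 5-week library bears that number, although no label says what a number marks. In it, 40 of 69 members were at least 1.5 times higher in 3w2 than in 3w100, against 5.87% of all genes tested. A single pair of libraries allows no test. In replicates 1 and 2 the counts at 1.5 times were 44 and 66, against 5.23% and 11.6% of all genes.

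The replicate numbers 1 and 2 did carry over from 3 to 5 weeks in these values, and more weakly from 1 week. Over the 69 members, the log2 difference between replicates 1 and 2 in 3w2 had a Pearson's r of 0.820 with that in 5w2, and the same r was 0.682 between 3w100 and 5w100. Over all 13604 genes tested, the values were 0.550 and 0.482. These are correlations across genes of the same libraries, not across independent samples. An example is the member of rank 6. On the soft surface its replicate 2 libraries measured 13.6 CPM at 1 week, 23.996 CPM at 3 weeks and 31.6 CPM at 5 weeks, while the replicate 1 libraries measured 5.97, 4.74 and 6.56 CPM. On the stiff surface replicate 2 measured 0.274 CPM at 1 week, 0.0560 CPM at 3 weeks and 0 CPM at 5 weeks, and replicate 1 measured 5.38, 3.02 and 0.743 CPM. The 1-week and 3-week libraries numbered 1 and 2 cannot be taken as independent of the libraries that chose the members.

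**Figure D3:**
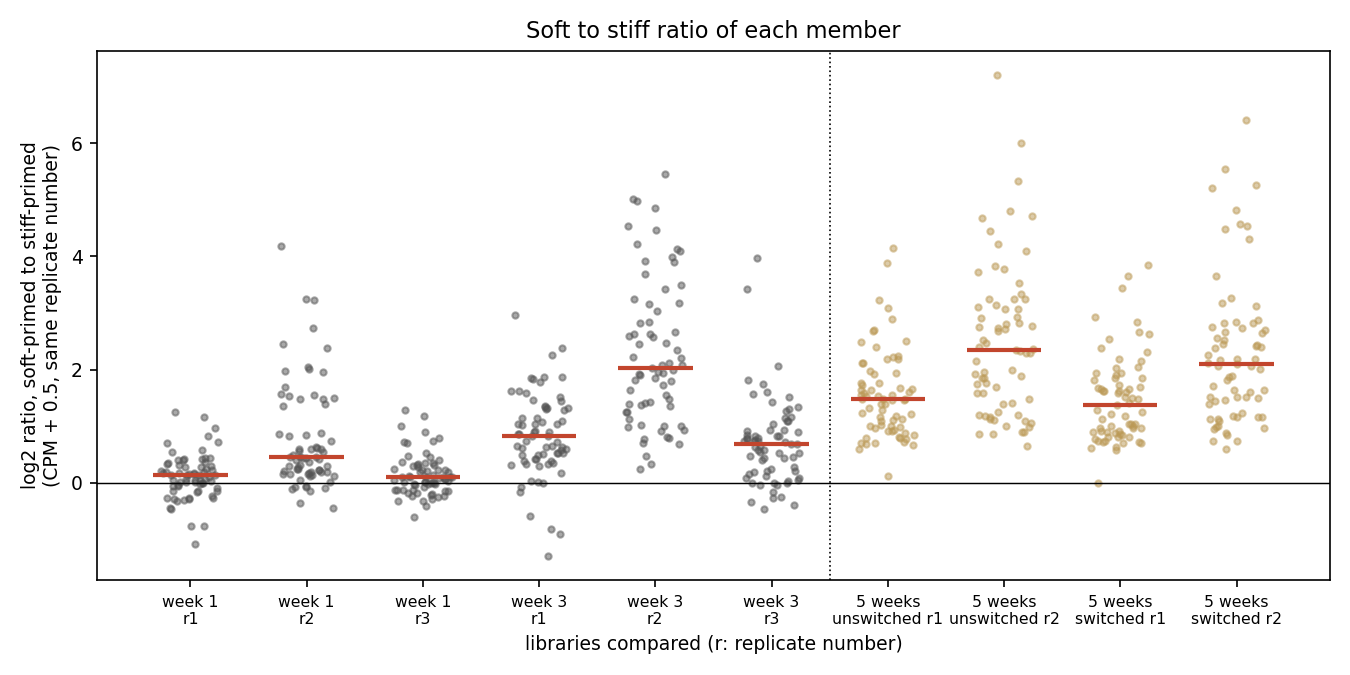
Each point is the log2 ratio of a member between a soft-primed and a stiff-primed library of the same replicate number (r), after adding 0.5 CPM to both, and red bars give the median over the 69 members. Points right of the dotted line come from the libraries that chose the members. To its left, week 1 lies nearer 0 than week 3. Replicate 2 had the largest median fold of CPM at week 1 (1.40, beside 1.10 and 1.08 in replicates 1 and 3). At week 3 replicate 2 lies above replicates 1 and 3.

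ENSRNOG00000013907 measured 6.63, 15.2 and 7.35 CPM in 3w2 replicates 1 to 3 and 1.49, 0 and 0 CPM in 3w100, with no overlap. Its log2 fold change at 3 weeks was 3.94 ± 1.14 (SE, edgeR; unadjusted p = 0.00548, adjusted p = 0.545). ENSRNOG00000012471 measured 8.66, 13.95 and 2.91 CPM in 3w2 and 2.03, 0 and 0.318 CPM in 3w100, and its log2 fold change was 3.21 ± 0.96 (SE, edgeR; adjusted p = 0.545). Under other settings the adjusted p of the first ran from 0.115 to 1.00 and that of the second from 0.00175 to 1.00. The most abundant member, of rank 43, measured 12656, 8614 and 7712 CPM in 3w2 and 7164, 6216 and 7556 CPM in 3w100, so that its groups stood apart by the narrow gap between 7712 and 7556 CPM. The smallest fold at 3 weeks, 1.06, was that of the member of rank 28, with 9.62, 7.38 and 4.30 CPM in 3w2 against 10.8, 3.64 and 5.77 CPM in 3w100. Its groups overlapped fully, although they were separate at 5 weeks.

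After 1 week the difference was small for most members. The mean CPM was higher in 1w2 than in 1w100 for 61 of 69 members, the median fold was 1.17 beside 0.993 over all genes, and 17 members were at least 1.5 times higher, against 1.40% of all genes tested. The test of edgeR called 0 members, and 0% of all genes, with a lowest adjusted p of 1.00. At an unadjusted p below 0.05 it took 2 members higher, against 0.257% of genes, and these were the members of ranks 1 and 2. DESeq2 also called 0. The replicate numbers paired the libraries of week 1 more closely than those of week 3, while the block that was fitted was shared by both weeks. With that block, the unadjusted count was 4 (0.412% of genes). It was 8 when only the groups compared were fitted (0.25%), 0 without replicate 2 of 1w2 or of 1w100 (0.355% and 0.167%), 1 without 3w2 replicate 1 or replicate 2 (0.21% and 0.319%), and 5 without 3w2 replicate 3 or 3w100 replicate 1 (0.312% and 0.326%). The libraries of the surfaces did not overlap for 9 members, against 1.43% of genes, a count that reached 20 on leaving out 1w2 replicate 3 (6.28% of genes in the same libraries), 17 on leaving out 1w100 replicate 1 (6.06%) and 15 on leaving out 1w100 replicate 3 (5.26%). Replicate 2 again showed the largest gap, with a median fold of 1.40 beside 1.10 in replicate 1 and 1.08 in replicate 3. Libraries numbered 2 were also among those that chose the members. Within replicates 1, 2 and 3, 45, 61 and 45 of 69 members were higher in 1w2, against 42.1%, 49.4% and 51.2% of genes. The members at least 1.5 times higher numbered 7, 30 and 9, against 2.65%, 3.87% and 3.43%.

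ENSRNOG00000013907 was at 0.538, 4.21 and 0.668 CPM in 1w2 and at 0.410, 0 and 0.208 CPM in 1w100 after 1 week, with 1w2 replicate 2 far above the rest. ENSRNOG00000012471 was at 3.12, 6.14 and 1.21 CPM in 1w2 and at 1.02, 0.493 and 0.260 CPM in 1w100, every soft library above every stiff one. Their log2 fold changes were 2.61 ± 1.17 and 2.38 ± 0.97 (SE, edgeR), and their adjusted p was 1.00. In 1w2, 8 of the members were lower by mean than in 1w100, the furthest being that of rank 40 at 0.577 times 1w100, with 0.161, 0.361 and 0.182 CPM against 0.307, 0.602 and 0.312 CPM. These levels are a few reads a library.

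Most members had a larger soft to stiff fold of means at 3 weeks than at 1 week (65 of 69), and 59 of the 68 with a finite fold had a larger one at 5 weeks, where they were chosen, than at 3. In edgeR the fold was larger at 3 weeks than at 1 week for 63 of the 68 members tested, against 6435 of the 13604 genes tested. The test of the difference between the folds of weeks 1 and 3 (the interaction in edgeR) called 0 members and 0% of all genes. At an unadjusted p below 0.05, 8 members had a larger fold at 3 weeks, against 1.08% of genes. That count was 23 without 3w2 replicate 3 (2.28% of genes) and 25 without 3w100 replicate 1 (2.78%). It was 5 without 1w2 replicate 1 (1.36%), and 4 without 1w100 replicate 1 (1.06%), 1w100 replicate 3 (1.47%), 3w2 replicate 1 (0.66%) or 3w100 replicate 3 (0.876%). It was 3 without 3w2 replicate 2 (0.956%) and 2 without 3w100 replicate 2 (0.687%).

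The members differed in their course from week 1 to week 3. By a threshold of 1.5 times between group means, 39 of 69 members were higher in 3w2 than in 1w2 and 6 were lower, against 6.66% and 13.1% of all genes tested. On the stiff surface, 18 were higher in 3w100 than in 1w100 and 27 were lower, against 6.31% and 14.2%. The median ratio of week 3 to week 1 was 1.83 on soft and 0.846 on stiff. The larger ratio was on soft for 65 of 69 members, which restates the comparison of the folds of weeks 1 and 3 above and is no separate result. The stiff median was 0.582 without 3w100 replicate 1 and 1.001 without 3w100 replicate 2, so its side of 1 rested on single libraries. Of the members, 18 were higher at 3 weeks on both surfaces, 17 were higher on soft and within 1.5 times on stiff, 18 were within 1.5 times on soft and lower on stiff, 4 were higher on soft and lower on stiff, and 5 were lower on both. There were 6 within 1.5 times on both and 1 lower on soft only. Set against the week 1 mean of the same surface, the soft-primed mean at 5 weeks was at least 1.5 times higher for 47 members and lower for 4, and the stiff-primed mean was higher for 15 and lower for 37. These 5-week means chose the members, so rises after soft priming and falls after stiff priming were favoured by the choice. No share over all genes is given for them.

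The libraries of weeks 1 and 3 did not overlap for 18 members higher and 6 lower at 3 weeks on soft, against 8.4% and 20.9% of all genes tested, and for 6 higher and 14 lower on stiff, against 9% and 23.1%. By the test, 9 of 69 members (13%) rose on the soft surface from week 1 to week 3 (edgeR, adjusted p below 0.05). The share of all genes tested was 3.96%. On that surface 4 (5.8%) fell, against 5.45%. On the stiff surface 3 (4.3%) rose, against 4.56%, and 4 (5.8%) fell, against 5.62%. The falls on either surface and the rises on stiff were thus near the share over all genes. The 3 that rose on stiff were among the 9 that rose on soft, and the 4 that fell on stiff were the 4 that fell on soft. The soft rises numbered 16 with DESeq2 (4.56% of genes) and 5 when only the groups compared were fitted (1.83%). They numbered 4 without 1w2 replicate 1 or 3w2 replicate 1 (1.19% and 1.56% of genes), 5 without 1w2 replicate 3 or 3w2 replicate 2 (3.42% and 2.59%), 14 without 3w100 replicate 1 (4.63%) and 18 without 3w2 replicate 3 (4.83%). The soft falls numbered 1 without 1w2 replicate 1, 1w2 replicate 3 or 3w2 replicate 1 (2.57%, 4.08% and 2.85% of genes), and 2 without 3w2 replicate 2 or replicate 3 (3.1% and 6.26%). On stiff, 1 rise was left without 1w100 replicate 1, 3w100 replicate 2 or 3w100 replicate 3 (1.46%, 2.43% and 2.85% of genes). The stiff falls numbered 7 without 3w2 replicate 3 (5.75%) and 7 when only the groups compared were fitted (4.85%). DESeq2 gave 6 rises and 9 falls on stiff, against 4.79% and 5.27% of genes.

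**Figure D4:**
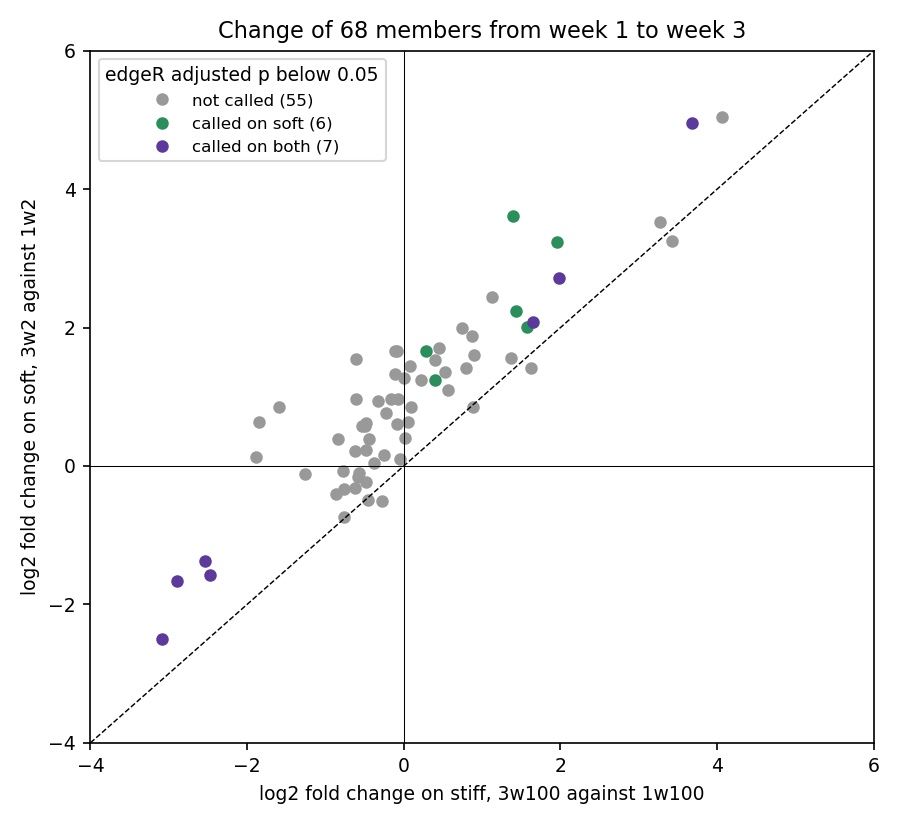
Log2 fold change from week 1 to week 3 on the soft surface (vertical) against that on the stiff surface (horizontal) for the 68 members tested, from edgeR, with n = 3 libraries a group; colour marks an adjusted p below 0.05. Of the members, 63 lie above the dashed line of equal change, 7 were called on both surfaces, 6 on soft alone and 55 on neither. Lying above the line is the same as having a larger soft to stiff fold at week 3 than at week 1.

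The member of rank 38 rose on both surfaces. It measured 0.431, 5.60 and 0.546 CPM in 1w2 and 40.4, 131 and 27.5 CPM in 3w2, a log2 fold change of 4.96 ± 0.96 (SE, edgeR; adjusted p = 0.00967). On stiff it measured 1.08, 2.96 and 0.727 CPM in 1w100 and 31.5, 11.2 and 16.9 CPM in 3w100, a log2 fold change of 3.68 ± 0.94 (SE, edgeR; adjusted p = 0.0327). The 3-week libraries of the surfaces overlapped, since 3w100 replicate 1 lay above 3w2 replicate 3. At 5 weeks it stood at 92.9 and 157 CPM in 5w2 and 50.5 and 26.8 CPM in 5w100. The member of rank 68, close to the threshold, rose on soft by 1.67 ± 0.30 on the log2 scale (SE, edgeR; adjusted p = 0.00630) and changed on stiff by 0.29 ± 0.29 (SE; adjusted p = 0.578). It measured 41.0, 33.5 and 21.6 CPM in 3w2 and 15.9, 12.3 and 11.97 CPM in 3w100, without overlap, and the difference between its folds at 3 weeks and 1 week had an unadjusted p of 0.00703 in edgeR (adjusted p = 1.00).

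ENSRNOG00000012216, of rank 23, fell on both surfaces. It measured 41.5, 32.4 and 17.7 CPM in 1w2 and 33.4, 21.2 and 19.3 CPM in 1w100. At 3 weeks it measured 5.99, 6.82 and 2.15 CPM in 3w2 and 4.06, 1.40 and 2.17 CPM in 3w100, and these groups overlapped. The log2 fold changes from week 1 to week 3 were -2.50 ± 0.47 on soft (SE, edgeR; adjusted p = 0.00837) and -3.08 ± 0.49 on stiff (SE, edgeR; adjusted p = 0.00308), and their difference was not called (adjusted p = 1.00). At 5 weeks it measured 14.8 and 5.34 CPM in 5w2, 16.6 and 4.16 CPM in 3w2→2w100, 1.86 and 1.08 CPM in 5w100, and 1.73 and 1.27 CPM in 3w100→2w2. Every 5-week level was below the 1-week levels of its surface, so this member was high after soft priming only beside stiff priming.

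ENSRNOG00000010516, of rank 20, also fell on both surfaces. It measured 29.01, 14.7 and 34.6 CPM in 1w2 and 30.01, 12.4 and 32.1 CPM in 1w100, with the same order of replicate numbers on both surfaces. At 3 weeks it measured 6.68, 9.61 and 6.88 CPM in 3w2 and 2.98, 2.30 and 3.76 CPM in 3w100, without overlap. Its log2 fold changes from week 1 were -1.66 ± 0.38 on soft (SE, edgeR; adjusted p = 0.0221) and -2.89 ± 0.41 on stiff (SE, edgeR; adjusted p = 0.00170). The soft fall was lost without 1w2 replicate 1, 1w2 replicate 3, 3w2 replicate 1 or 3w2 replicate 3, with adjusted p values of 0.0846, 0.0693, 0.0930 and 0.0551, and over all settings that p ran from 0.000125 to 0.0930. At 5 weeks it measured 8.75 and 8.58 CPM in 5w2, 7.93 and 5.87 CPM in 3w2→2w100, 2.55 and 0.914 CPM in 5w100, and 2.10 and 1.82 CPM in 3w100→2w2. The other members that fell on both surfaces were those of ranks 16 and 50.

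**Figure D5:**
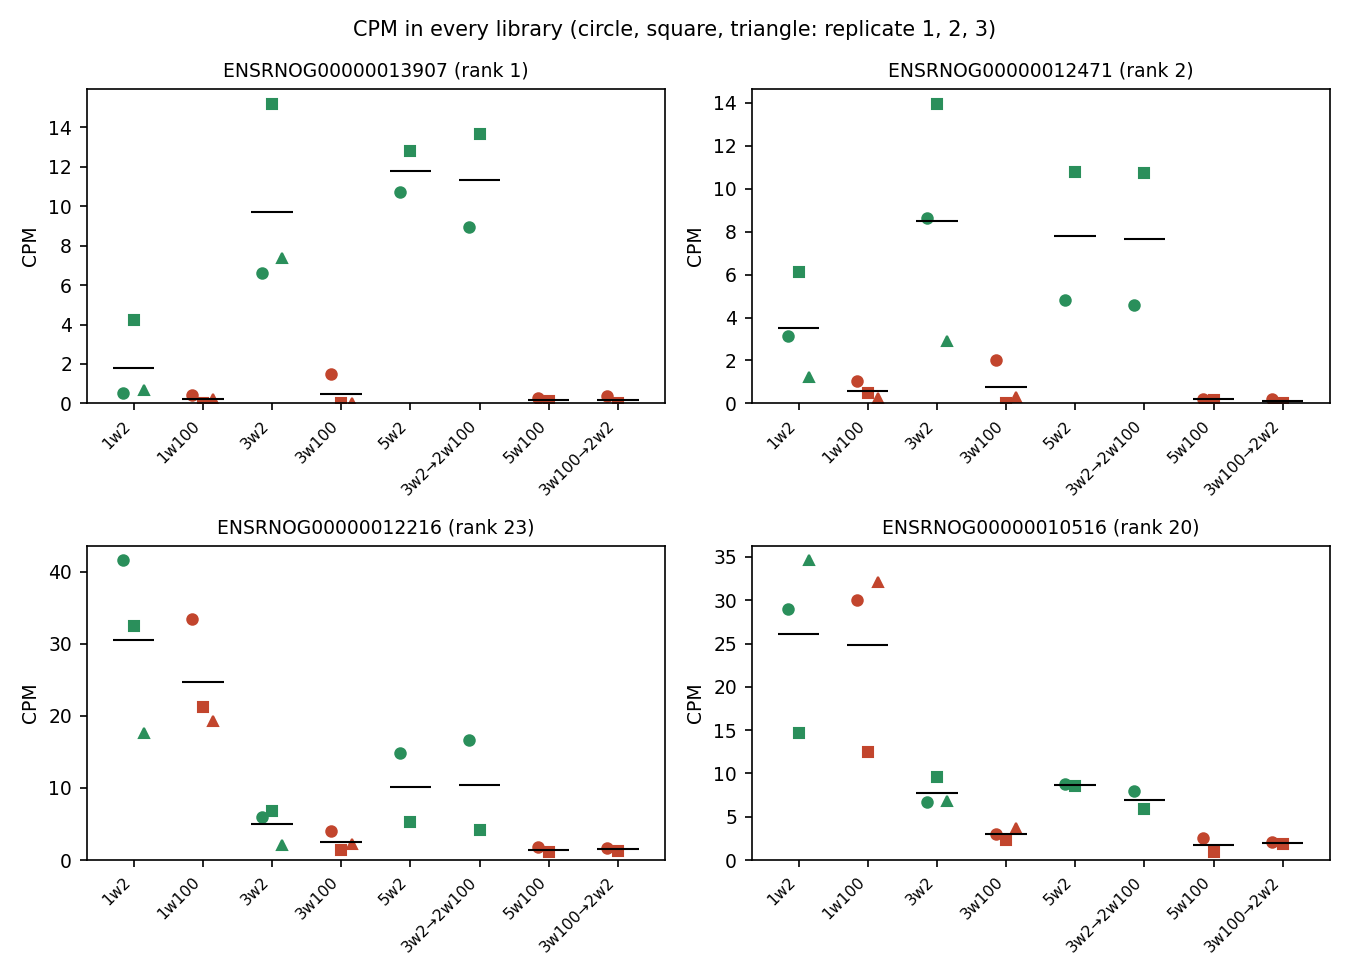
CPM in every library of the 4 members named by identifier, in 4 panels with a linear axis from 0; green marks libraries that began on the soft surface and red those that began on the stiff one, circles, squares and triangles are replicates 1, 2 and 3, and bars are group means. The upper pair has higher group means at each time in libraries that began on the soft surface, and lies near 0 in those that began on the stiff one. At week 1 these differences were not called, and 1w2 replicates 1 and 3 of ENSRNOG00000013907 also lie near 0. The lower pair starts high on both surfaces at 1 week and separates later.

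A further 2 members show how far replicates could differ. The member of rank 7 was between 0 and 0.359 CPM in the 6 libraries of week 1. At 3 weeks it measured 16.5, 8.80 and 0.525 CPM in 3w2 and 10.7, 0.112 and 0.0530 CPM in 3w100, so that replicate 1 was high on both surfaces and replicate 3 low on both. Its soft change of 5.05 on the log2 scale was not called (edgeR, adjusted p = 0.087). The member of rank 12 measured 7.10, 79.8 and 6.25 CPM in 1w2, 258, 638 and 115 CPM in 3w2, 12.4, 19.9 and 3.63 CPM in 1w100, and 205, 76.9 and 37.5 CPM in 3w100. Its levels at 3 weeks were above those at 1 week on both surfaces without overlap, and its changes were not called either (edgeR, adjusted p = 0.074 on soft and 0.094 on stiff).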

How the data were processed

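The authors deposited a table of raw read counts per Ensembl gene for the 20 libraries. Per the labels and the study's methods, they trimmed reads with Trim Galore, checked them with FastQC, aligned them with HISAT2 to rn7 and counted with featureCounts. Tool versions, strand and multi-mapping settings were not given in the sources used here. Reads of near-identical copies or genes that overlap may have been split or lost.

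The members and lists were chosen with earlier results of these data known. Groups came from the labels. Counts of the 12 libraries of weeks 1 and 3 were fitted with edgeR 4.0.16 (R 4.3.3, limma 3.58.1): filterByExpr with a minimum count of 10, TMM factors, a quasi-likelihood test with a prior count of 2, a two-sided p and Benjamini-Hochberg adjustment over 13604 genes. The 8 libraries of 5 weeks stayed out of the fit. DESeq2 1.42.0 was an alternative. On counts simulated for these libraries, in which 200 genes, each averaging 50 or more counts, were given a log2 change of 2, the share found by edgeR was 95.0% (3w2 against 3w100), 96.5% (1w2 against 1w100), 96.0% (3w2 against 1w2) and 94.0% (3w100 against 1w100), among 13604 genes, and it also called 11, 18, 10 and 4 unchanged genes. DESeq2 found 97.0%, 98.0%, 97.0% and 96.0% and called 49, 51, 43 and 27 unchanged genes. The members' median log2 fold change in edgeR was 1.24 between 3w2 and 3w100 and 0.24 between 1w2 and 1w100. The simulated libraries were drawn independently, with none set apart as 3w2 replicate 3 was. The shares found therefore do not tell how many changes of the members' size would be called.

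P values treat libraries as independent. Replicate numbers paired the week 1 libraries (correlation of deviations across genes 0.655, 0.680 and 0.796 between 1w2 and 1w100; seen in the data alone, as no label says what a number marks). The correlations between 3w2 and 3w100 were lower at week 3 (0.393, 0.0885 and 0.477). The main fit paired no libraries at either week. A level of 3 counts in a library was taken as the floor. The value was fixed and not estimated, and it gives no detection limit for a difference at higher levels. It takes no account of the spread between replicates.

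At most 4 identifiers were printed, since no table paired them with names: the pair with the largest ratios, and the pair with the largest called falls on the stiff surface. The wider rule for naming genes, the gene lists and the promoter search could not be applied. Other members stand by rank and were chosen after their values were seen.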

Additional observations from a re-analysis of the deposited data

How the results depend on the processing

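Some values that were not called changed sign. The median log2 fold change of the members from 1w100 to 3w100 was -0.10 in edgeR, 0.15 without 3w100 replicate 2 and 0.03 without 3w100 replicate 3. Over the settings, ENSRNOG00000010516 ran from -0.23 to 0.36 between 1w2 and 1w100, and from 1w100 to 3w100 ENSRNOG00000013907 ran from -1.51 to 1.66 and ENSRNOG00000012471 from -1.28 to 1.02. The number of members was 28 with a fold threshold of 2, 185 with a threshold of 1.2, and 71 to 87 when the rule left out each of the 8 libraries in turn. At 3 weeks, members called higher in 3w2 numbered 0 with edgeR, 4 with DESeq2 (0.0951% of genes) and 27 with DESeq2 and the replicate block (0.515%). Over the fits that left out 1 library they numbered 0 to 4, where 4 came without 3w2 replicate 3 (0.0507%). The unadjusted count of 40 (554 of 13604 genes) ran from 21 (323 of 13809) to 52 (790 of 13802) over those fits. Under the block in edgeR it was 51 (792 of 13604). At 1 week, 0 members were called with each library left out. The unadjusted count of 2 (35 of 13604 genes) was 8 with only the groups compared (33 of 13207). It was 4 with the replicate block in edgeR (56 of 13604) or DESeq2 (32 of 19988). With a library left out it ran from 0 to 5 (shares above). Rises on soft numbered 9 in edgeR (539 of 13604 genes), 16 with DESeq2 (912 of 19983) and 5 with only the groups compared (238 of 13021). They numbered 14 with the replicate block (863 of 13604) and 20 with DESeq2 and the block (1157 of 19988). At an unadjusted p they numbered 25 (1619 of 13604). With a library left out they ran from 4 to 18 (shares above). Falls on soft numbered 4 in edgeR (741 of 13604 genes). With a library left out they ran from 1 (shares above) to 5 (727 of 13798, without 3w100 replicate 1). Rises on stiff numbered 3 in edgeR (620 of 13604 genes), 6 with DESeq2 (958 of 19983) and 6 with the replicate block (966 of 13604). They numbered 9 with DESeq2 and the block (1155 of 19988) and 10 at an unadjusted p (1710 of 13604). With a library left out they ran from 1 to 4. The 4 came without 1w2 replicate 2 (566 of 13797) and without 3w2 replicate 3 (629 of 13802). Falls on stiff numbered 4 in edgeR, 9 with DESeq2, 7 with only the groups compared, 8 with the replicate block, 11 with DESeq2 and the block, 13 at an unadjusted p and 4 to 7 with a library left out. The interaction took 1 member with DESeq2 and the block, 8 at an unadjusted p (18 with the replicate block in edgeR), and 0 in edgeR with any library left out. Members without overlap between surfaces numbered 18 at 3 weeks (7 among the members at a threshold of 2; 19 to 58 with a library left out) and 9 at 1 week (5; 9 to 20). The median fold at 3 weeks ran from 1.87 to 3.30 with a library left out. At 1 week it was 1.35 at a threshold of 2, and 1.15 to 1.28 with a library left out. The median ratio of switched to unswitched was 0.970 with TMM factors and 0.952 in replicate pair 1 after soft priming, and 1.13 in replicate pair 2 after stiff priming. The cause of these shifts was not tested. Over all genes, the calls of 3w2 against 3w100 numbered 0 in edgeR, 32 with DESeq2, 203 with DESeq2 and the block, and 16 without 3w2 replicate 3. Those of 3w2 against 1w2 numbered 1971 with DESeq2, 585 with only the groups compared, and 1966 with the replicate block.

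The groups at 5 weeks held 2 libraries each and chose the members, so no test of the switch was made. The 3-week libraries numbered 1 and 2 moved with the 5-week libraries of the same numbers, and those of 1 week did so more weakly. No 5-week library bears the number 3, so whether the pair so numbered moved with the 5-week libraries could not be measured. Some members, such as those of ranks 1 and 2, were at a few reads in the stiff-primed libraries, where a fold rests on counts near the floor.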
